A study of Mus musculus with 96 samples.

Results

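Leukaemia clones that started from LSK cells were followed in immunodeficient NSG mice that received them alone or mixed with a competitor, leukaemia cells that started from GMP cells. A clone is taken here as all cells that carry the same DNA barcode. LSK-derived clones were recognised by barcodes of the GFP library and GMP-derived clones by barcodes of the mCHERRY_2 library. Only GFP barcodes were used, and each library was rescaled to its own GFP reads, so that a share below is a share of the LSK-derived leukaemia and not of the whole tumour. The comparison rests on 15 mouse tissues out of the 48 mouse tissues and cell pools of the series, or 30 of its 96 submitted samples, which were PCR duplicates. Bone marrow and spleen came from 4 mice with LSK cells alone (mice 9 to 12). The mixed recipients were mice 21 to 24, of which mouse 24 has a spleen library only. The table of NSG mice listed 1281 GFP barcodes among 2844 barcodes in all. Clones are called by the number in their barcode's name, so that clone 29850 is GFP_Barcode_29850.

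The donor cells of both groups came from the marrow of female C57BL/6 mice aged 6 to 8 weeks. LSK cells were sorted as lineage-negative, c-Kit-positive and Sca-1-positive, and GMP cells as lineage-negative, c-Kit-positive, CD34-positive and high for the Fcγ receptor. Both were transduced with an MLL-AF9 retrovirus and with SPLINTR barcodes and grown with IL-3, IL-6 and SCF before transfer. The number of cells given, the time of harvest and the age and sex of the recipients are not given in the sources used here.

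LSK cells are an immature marrow population that holds the haematopoietic stem cells, and GMP cells are progenitors committed to granulocytes and monocytes. MLL-AF9 joins the chromatin regulator MLL to AF9, a partner that recruits transcription elongation factors, and keeps a stem cell programme running that includes the Hoxa genes and Meis1. The fusion can transform either population. NSG mice lack T, B and NK cells. Because a barcode is copied with the genome at each division, the share of reads that a barcode takes stands for the share of cells in its clone. A clone can be lost at seeding, when few injected cells settle in a tissue, or later, when other clones outgrow it, and barcode counts at the end show the sum of both.

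The LSK library was already large when the cells were injected. In the LSK pool taken before transfer, 99.99% of reads were GFP, and 679 clones reached 100 CPM, the minimum for calling a clone detected here. CPM means reads per 1000000 GFP reads, so this minimum is a share of 0.01%. In the mixed pool 50.6% of reads were GFP (Wilson 95% interval 50.56 to 50.66), and 686 GFP clones reached 100 CPM. The GFP part of both pools was nearly the same. Of the 654 clones at 100 CPM or more in both, 99.7% were within 2-fold of each other. Each kind of recipient drew on 1 pool, so the p-values below measure the spread between mice and not between transductions. A given number of mixed cells held about equal parts of LSK- and GMP-derived cells. The effect of GMP cells in the same mouse and of a smaller number of LSK cells therefore cannot be told apart.

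GFP reads per library ranged from 2519590 to 8497406, so that 100 CPM stood for 252 to 850 reads. In mixed libraries 20.4% to 56.1% of reads were of the GMP library. GFP reads ranged from 2519590 to 6101911 there and from 6009222 to 8497406 with LSK cells alone. In the recipients of LSK cells alone, 0.0147% to 0.141% of reads came from outside the GFP library. No GFP clone at 100 CPM or more in any of the 15 libraries was absent from the LSK pool. Barcode reads show no marker expression, so the cell type of origin was checked only through the barcode library.

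Fewer LSK clones were detected in mice that also received GMP cells. In bone marrow of mice 9, 10, 11 and 12, which had LSK cells alone, 38, 35, 37 and 49 clones reached 100 CPM. In bone marrow of the mixed mice 21, 22 and 23 the numbers were 31, 30 and 20. Every mixed marrow held fewer LSK clones than every marrow with LSK cells alone. The means were 39.8 ± 6.29 (SD, n = 4) alone and 27.0 ± 6.08 (SD, n = 3) mixed, a 1.49-fold difference between the means of log2 numbers, which reached the smallest p that 3 mice against 4 can give (exact two-sided permutation test on log2 numbers, p = 0.0571, adjusted p = 0.143 over 10 tests of numbers, dominance and survival).

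The spleen showed the same order. With LSK cells alone, spleens of mice 9, 10, 11 and 12 held 37, 34, 34 and 46 detected clones. Spleens of the mixed mice 21, 22, 23 and 24 held 32, 32, 21 and 29. Again the groups did not overlap, and mouse 23 was lowest and mouse 12 highest in both tissues. The means were 37.8 ± 5.68 (SD, n = 4) and 28.5 ± 5.20 (SD, n = 4), a 1.33-fold difference on the same scale at the smallest p that 4 mice against 4 can give (exact permutation test, p = 0.0286, adjusted p = 0.143). With these group sizes no adjusted p in the family of 10 tests could fall below 0.0571, so none of the 10 could pass a threshold of 0.05.

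The difference in the spleen depended on the minimum for detection. On the log2 scale it was -0.41, mixed minus alone, at 100 CPM, and -0.27 without mouse 23, the lowest. At a minimum of 10 CPM it was -0.53 (exact permutation test, p = 0.0286), but counting every GFP clone with a read it was -0.20 (exact permutation test, p = 0.629). With every spleen library thinned to 2937816 GFP reads it was -0.16 (exact permutation test, p = 0.657). Clones with any read numbered 80, 151, 91 and 99 in spleens with LSK cells alone and 115, 142, 56 and 68 in mixed spleens, and these ranges overlapped. In marrow they numbered 76, 83, 253 and 134 alone and 62, 66 and 49 mixed, and did not overlap (log2 difference -1.05, exact permutation test, p = 0.0571). At 10 CPM the marrow difference was -0.37, and the groups met there (exact permutation test, p = 0.114).

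**Figure D1:**
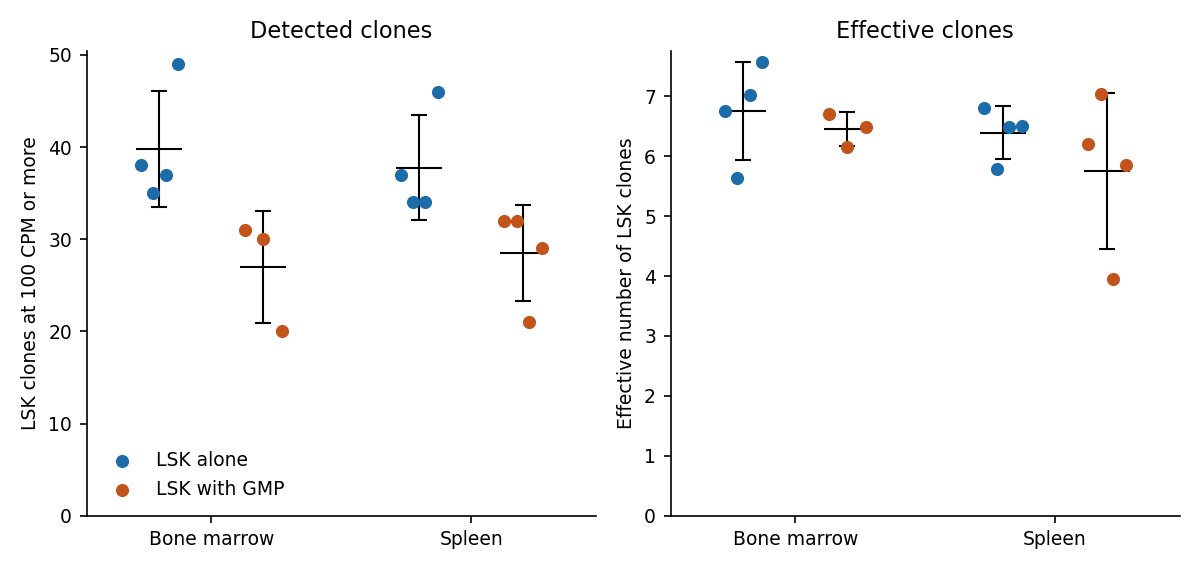
Number of LSK clones at 100 CPM or more (left) and effective number of LSK clones (right) in bone marrow and spleen of NSG mice with LSK cells alone (blue) or with GMP cells (orange). Each point is 1 mouse, the bars are the mean and SD, and both axes start at 0. The detected clones do not overlap between groups in either tissue, and the effective clones do.

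Dominance differed less than clone number. The effective number of clones, the exponential of the Shannon entropy, discounts small clones and would equal the clone count if all were of 1 size. In bone marrow it was 6.76, 5.64, 7.03 and 7.58 in mice 9 to 12 and 6.71, 6.16 and 6.50 in mice 21 to 23. Mixed marrows lay inside the range of marrows with LSK cells alone, with means of 6.45 ± 0.28 (SD, n = 3) and 6.75 ± 0.82 (SD, n = 4; exact permutation test, p = 0.686, adjusted p = 0.686). In the spleen it was 6.81, 5.78, 6.49 and 6.50 in mice 9 to 12 and 6.20, 7.04, 3.96 and 5.85 in mice 21 to 24. Spleen means were 5.76 ± 1.30 (SD, n = 4) mixed and 6.40 ± 0.44 (SD, n = 4) alone (exact permutation test, p = 0.429, adjusted p = 0.476). The lowest value was that of mouse 23, and the highest that of mouse 22, both mixed.

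The largest clone of bone marrow held 28.9%, 27.4%, 32.5% and 24.4% of GFP reads in mice 9 to 12 and 27.1%, 34.4% and 32.5% in mice 21 to 23. The largest clone of the spleen held 33.9%, 28.1%, 29.6% and 27.0% in mice 9 to 12 and 36.2%, 25.5%, 48.9% and 32.1% in mice 21 to 24. The ranges overlapped in both tissues, and clone 29850 in the spleen of mouse 23 stood above every other largest clone. Neither tissue gave a difference beyond the spread of mice (exact permutation tests, p = 0.343 and adjusted p = 0.429 in each). The 10 largest clones of a library together held 96.0% ± 1.83 (SD, n = 4) alone and 98.5% ± 0.98 (SD, n = 3) mixed in marrow. In the spleen they held 97.1% ± 0.90 (SD, n = 4) alone and 98.4% ± 0.82 (SD, n = 4) mixed. The exact permutation p was 0.114 in marrow and 0.0857 in spleen, with adjusted p of 0.190 and 0.171, and the groups overlapped in both.

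The same 4 clones led the LSK leukaemia with and without GMP cells. Clones 29850, 7785, 1859 and 100907 were the 4 largest by mean share of mice in both kinds of recipient, and each was detected in all 15 libraries. They were picked for these shares, which are therefore given as a description. Together they held 63.0%, 93.1%, 86.1% and 85.01% of GFP reads in the marrows of mice 9 to 12. In mixed marrows they held 82.7%, 88.7% and 79.4%. In spleens they held 84.4%, 91.3%, 86.9% and 87.9% alone and 80.5%, 82.6%, 97.1% and 87.9% mixed. The low value of 63.0% belonged to mouse 9, whose marrow held another large clone. The other 14 libraries lay between 79.4% and 97.1%, with the highest and the lowest of them both from the mixed mouse 23.

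Within this group of 4 the order varied from mouse to mouse. Clone 29850 averaged 25.7% ± 5.23 (SD) over the 4 mice with LSK cells alone and 23.7% ± 9.80 over the 4 mixed mice, with mouse values averaged over tissues. Clone 7785, the third most abundant GFP clone of the LSK pool, averaged 20.0% ± 6.68 alone and 26.6% ± 5.37 mixed. Clone 1859 averaged 19.3% ± 4.63 and 21.8% ± 8.47. Clone 100907 averaged 19.7% ± 1.70 alone and 13.8% ± 4.99 mixed. The shares of each of the 4 clones overlapped between the kinds of recipient in both tissues. In the LSK pool clones 29850, 100907 and 1859 ranked only 44, 48 and 60, at 0.563%, 0.533% and 0.462% of GFP reads.

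**Figure D2:**
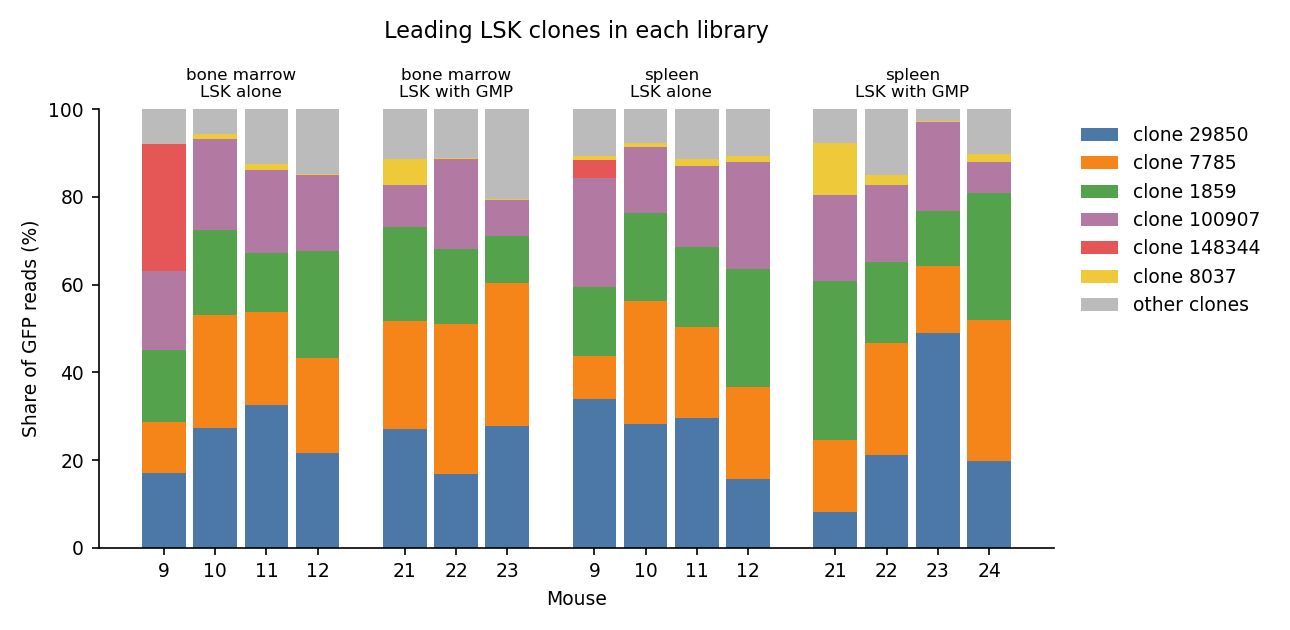
Share of GFP reads held by the leading LSK clones in each of the 15 libraries, as stacked bars that add up to 100%, grouped by tissue and by kind of recipient. Clones 29850, 7785, 1859 and 100907 make up 79.4% to 97.1% of every library except the marrow of mouse 9, where clone 148344 takes 28.9%.

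Some clones were much larger in a few mice than in the others. Clone 148344, ranked 11 in the LSK pool at 1.05% of GFP reads, held 28.9% of the marrow and 3.89% of the spleen of mouse 9 and was under 0.01% in the other 13 libraries. Clone 8037 was detected in all 15 libraries and held 5.92% of the marrow and 11.7% of the spleen of the mixed mouse 21, against at most 2.40% in any other library. Clone 94426 held 6.80% of the marrow of mouse 23 and 3.15% of the spleen of mouse 24, both mixed, and at most 0.362% elsewhere. Clone 2255, by contrast, was larger in mice 11 and 12 with LSK cells alone, at 2.24% and 1.86% of marrow and 3.87% and 2.45% of spleen, than in any mixed library, where it reached 1.43% at most. Its shares in mice 9 and 10, between 0.117% and 0.528%, lay within those of mixed mice.

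Among the second-rank clones, 74372 and 20873 were also present in every library. Clone 74372 ranged from 0.433% to 2.74% with LSK cells alone and from 0.105% to 5.51% with GMP cells. Clone 20873 ranged from 0.647% to 3.07% and from 0.136% to 2.74%. Both ranked low in the LSK pool, at 397 and 558 with 0.0356% and 0.0181% of GFP reads. Both were thus detected in all 8 mice from a small share at injection.

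Clones were then counted by size. The size classes were chosen after the values had been seen. Clones with shares of 0.1% to under 1% numbered 10, 14, 16 and 17 in the marrows of mice 9 to 12 and 3, 7 and 2 in those of mice 21 to 23. In the spleen they numbered 12, 13, 9 and 9 alone and 6, 7, 6 and 7 mixed. The groups did not overlap in either tissue, with means of 14.3 ± 3.10 against 4 ± 2.65 in marrow and 10.8 ± 2.06 against 6.50 ± 0.58 in spleen. Exact permutation tests gave the smallest p that each design allows (p = 0.0571 in marrow and 0.0286 in spleen, adjusted p = 0.152 over 8 tests of size classes).

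Neighbouring classes behaved otherwise. In marrow, clones of 1% to under 10% were more numerous with GMP cells, at 7, 6 and 7 in mice 21 to 23 against 2, 1, 4 and 4 in mice 9 to 12, and these groups did not overlap either (exact permutation test, p = 0.0571, adjusted p = 0.152). In the spleen that class numbered 6, 2, 3 and 4 alone and 4, 5, 1 and 6 mixed, with overlapping ranges. Clones of 10% and over numbered 3 to 5 in every library. Clones of 0.01% to under 0.1% averaged 18.5 ± 4.93 alone and 13 ± 5 mixed in marrow and 19.5 ± 6.45 and 14.3 ± 3.50 in spleen, and overlapped in both (exact permutation tests, p = 0.286 in each, adjusted p = 0.381).

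**Figure D3:**
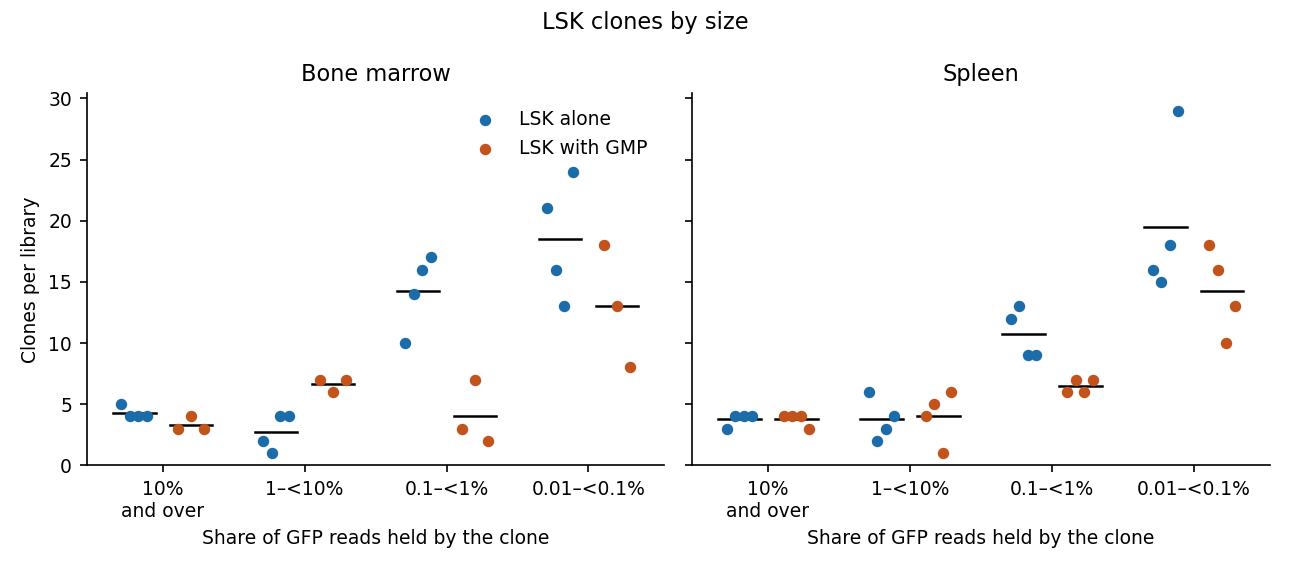
Number of LSK clones per library in 4 classes of clone size, in bone marrow (left) and spleen (right) of mice with LSK cells alone (blue) or with GMP cells (orange). Points are mice and black lines are means. The class of 0.1% to under 1% does not overlap between groups in either tissue, with means of 14.3 and 4 in marrow and of 10.8 and 6.50 in spleen.

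Survival was then read against the injected pool. Of 210 GFP clones at 1000 CPM (0.1%) or more in the LSK pool, 27, 21, 23 and 28 were detected in the marrows of mice 9 to 12 and 18, 17 and 13 in those of mice 21 to 23. Every mixed marrow kept fewer of them than every marrow with LSK cells alone. The surviving shares were 11.8% ± 1.57 (SD, n = 4) and 7.62% ± 1.26 (SD, n = 3; exact permutation test, p = 0.0571, the smallest possible, adjusted p = 0.143). In spleens 25, 21, 20 and 26 survived alone and 20, 18, 12 and 16 with GMP cells. These groups met at 20 clones, in mouse 11 and mouse 21, with means of 10.95% ± 1.40 (SD, n = 4) and 7.86% ± 1.63 (SD, n = 4; exact permutation test, p = 0.0571, adjusted p = 0.143). Taking abundance from the mixed pool instead, where 213 GFP clones reached 1000 CPM, the spleen groups separated, at 22 to 28 survivors alone and 13 to 21 mixed, and the difference, mixed minus alone, was -3.40 percentage points (exact permutation test, p = 0.0286). In marrow they then met at 21 survivors, in mouse 10 and mouse 21.

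More abundant pool clones survived more often in both kinds of recipient. With LSK cells alone, the share detected in marrow was 0.377% of clones under 100 CPM in the LSK pool, 2.77% of those from 100 to under 1000 CPM, 8.02% of those from 1000 to under 5000 CPM and 23.5% of those at 5000 CPM and over. With GMP cells the shares were 0.0629%, 2.27%, 5.03% and 15.7% in the same order. In spleen they were 0.236%, 2.88%, 8.18% and 19.6% alone and 0.0943%, 2.45%, 5.35% and 15.7% mixed. By the LSK pool, the mean was lower with GMP cells in all 4 classes of both tissues.

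The groups separated in the class from 1000 to under 5000 CPM, which held 159 clones. In marrow 14, 10, 13 and 14 of them were detected in mice 9 to 12 and 8, 7 and 9 in mice 21 to 23 (exact permutation test, p = 0.0571, adjusted p = 0.305 over 16 tests of pool classes). In spleen 14, 11, 12 and 15 were detected in mice 9 to 12 and 9, 10, 7 and 8 in mice 21 to 24 (exact permutation test, p = 0.0286, adjusted p = 0.229). With classes taken from the mixed pool, the spleen groups again did not overlap (13 to 17 against 7 to 10 of 160 clones; exact permutation test, p = 0.0286, adjusted p = 0.229). The marrow groups did overlap there, at 10 to 16 against 8 to 11. In the other 3 classes the groups overlapped in both tissues with either pool as reference. The top class held 51 clones in the LSK pool, of which 13, 11, 10 and 14 were detected in the marrows of mice 9 to 12, 10 in each of mice 21 and 22, and 4 in mouse 23.

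**Figure D4:**
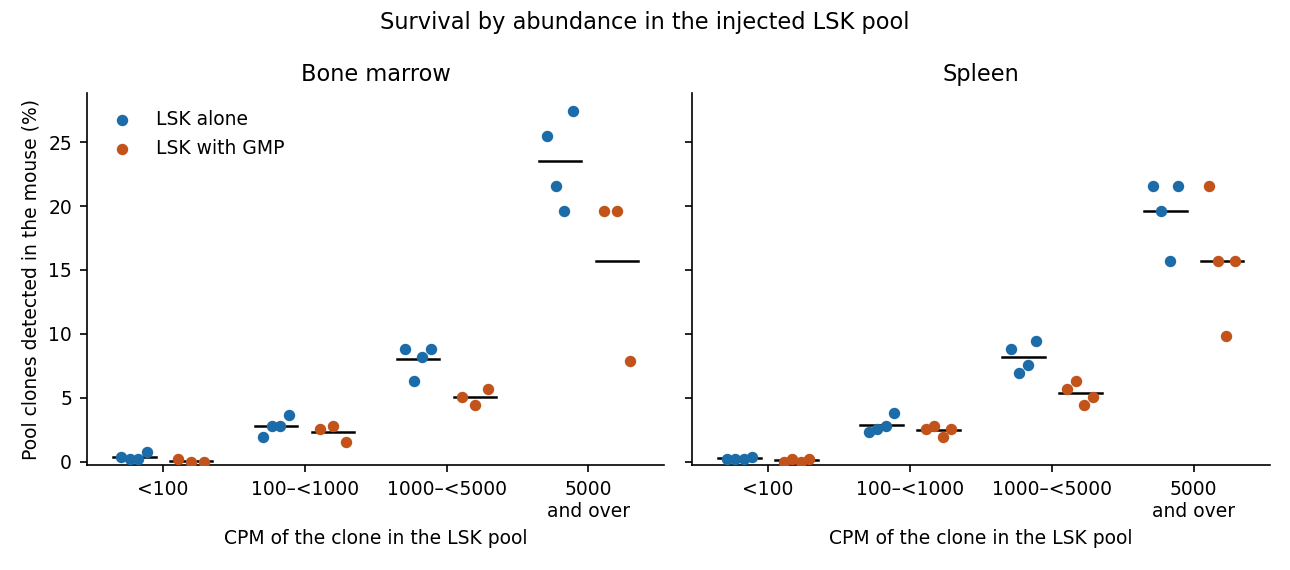
Percent of LSK pool clones detected at 100 CPM or more in bone marrow (left) and spleen (right), by abundance in the LSK pool, for mice with LSK cells alone (blue) or with GMP cells (orange). Points are mice and black lines are means. Survival is higher in more abundant classes for both kinds of mouse, and the class of 1000 to under 5000 CPM does not overlap between them.

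A large share at injection did not secure survival in either kind of mouse. The 10 most abundant clones of the LSK pool held 18.1% of its GFP reads. Of these, 5 were detected in no library of either group, among them the most abundant, clone 13743 with 2.55% of the LSK pool. Clone 7785 was the only one of the 10 detected in every library. Clone 86073, ranked 9, was detected in 5 of 8 libraries with LSK cells alone, at up to 0.289%, and in 0 of 7 mixed libraries, where it reached at most 8.56e-04%. Clone 128363, ranked 7, was detected in 1 of 8 libraries alone and in 2 of 7 mixed libraries, at up to 0.0610% and 0.153%. Clone 12105 was detected in 2 of 8 and 1 of 7 libraries, and clone 61835 in 1 of 8 and 0 of 7.

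Over both tissues, 82 LSK clones were detected in at least 1 of the 4 mice with LSK cells alone and 59 in at least 1 of the 4 mixed mice. The 50 clones found in both kinds made up 61.0% of the first set and 84.7% of the second. Mixed mice had 7 libraries against 8. In the spleen, where both groups had 4 mice, the sets were 61 and 49 clones, with 42 in both, or 68.9% and 85.7%. Detected in all 4 mice in at least 1 tissue were 27 clones with LSK cells alone and 16 with GMP cells, and all 16 were among the 27.

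The 50 clones found in both kinds of mouse had a median of 1531.4 CPM in the LSK pool. The 32 found only with LSK cells alone had a median of 697 CPM, and 22 of them reached 100 CPM in a single library. Only clone 148344 among these 32 was a leading clone, and 26 of them still had reads under 100 CPM in a mixed library. The 9 found only in mixed mice had a median of 242 CPM in the LSK pool, and 8 of them were detected in 1 library. The largest of them was clone 2523, with 2.68% of the marrow and 0.0166% of the spleen of mouse 23. Of the 210 abundant pool clones, 32 were detected in both kinds of mouse, 14 only with LSK cells alone, 0 only in mixed mice and 164 in neither.

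No single clone passed the test for a different share. Clones with a mean of 100 CPM or more over the libraries of a tissue were tested with limma on log2 of CPM plus 10, which gave 50 clones in marrow and 47 in spleen. With Benjamini-Hochberg adjustment 0 of 50 (0%) and 0 of 47 (0%) had an adjusted p under 0.05. At an unadjusted p under 0.05, limma gave 4 clones lower (8% of those tested) and 1 higher (2%) in mixed marrow, and 7 lower (14.9%) and 0 higher (0%) in mixed spleen. edgeR on the recovered reads also called 0 clones in either tissue, with 6 clones in marrow and 5 in spleen at an unadjusted p under 0.05. The median tested clone was 0.90 lower on the log2 scale in mixed marrow and 0.81 lower in mixed spleen, and 39 of 50 and 31 of 47 clones had a lower mean. These counts depended on the filter and on the scale. The filter took the mean over both groups, so that a clone high in only 1 group could pass through that group. With a mean of 1000 CPM or more, 19 of 26 clones in marrow and 12 of 24 in spleen were lower. The median differences were then -0.65 and -0.07. With each library centred on its median tested clone, 13 of 50 and 19 of 47 were lower, since that step added 2.65 and 1.43 to the median difference.

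The clones described next, which were lower in mixed mice in marrow or spleen, were of middle or small size. Among the leading clones, 29850 and 100907 also had lower mean shares of mice with GMP cells, and 7785 and 1859 had higher ones. Clone 15135, ranked 23 in the LSK pool at 0.747%, held 2.75%, 0.271%, 1.71% and 0.620% of the marrows of mice 9 to 12 and 0.0550%, 9.55e-04% and 0.00217% of those of mice 21 to 23. Every mixed marrow was below every other marrow, by -7.07 ± 2.20 (SE) on the log2 scale (limma adjusted p = 0.0755). Without mouse 21 the clone had a limma adjusted p of 0.0067, and over all settings its adjusted p ran from 0.0067 to 0.639. In the spleen the groups overlapped, since mixed mouse 22 held 2.67% of it.

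Clone 75494 was detected in 7 of 8 libraries with LSK cells alone and in 2 of 7 with GMP cells. It held 0.217%, 0.00195%, 0.592% and 0.192% of the marrows of mice 9 to 12 and 1.19e-04%, 0% and 0.0105% of those of mice 21 to 23. In spleens it held 0.317%, 0.0109%, 0.814% and 0.0366% alone and 4.50e-04%, 3.04e-04%, 0.0540% and 0% mixed. Most mixed libraries were low, but mouse 23 exceeded mouse 10 in both tissues and also mouse 12 in the spleen. The log2 difference was -5.30 ± 2.26 (SE) in marrow and -5.02 ± 1.66 (SE) in spleen (limma, adjusted p = 0.459 and 0.154).

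Clone 86073 was the lowest by p in the spleen. It held 0.157%, 0.0168%, 0.0585% and 0.00742% of spleens of mice 9 to 12, and 2.75e-04%, 8.56e-04%, 0% and 0% of those of mice 21 to 24. The groups did not overlap, at -4.79 ± 1.43 (SE) on the log2 scale (limma adjusted p = 0.150). Its 0 reads in a library allow a share of up to 3 reads, at most 1.19e-04% of GFP reads in any mixed library. In marrow the groups did not overlap either. Lower in every mixed library than in every other library were 2 of 50 clones in marrow (4%), 15135 and 86073, and 3 of 47 in spleen (6.38%), 86073, 21639 and 33133, the last named only for this count. The reverse held for 0 clones in each tissue (0%).

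Clones 885, 15287 and 12669 were also among the lowest by p. Clone 885 held 0.712% and 0.766% of the spleens of mice 11 and 9 and at most 0.0551% of a mixed spleen (log2 difference -4.42 ± 1.79 SE, limma adjusted p = 0.268). In the spleens of mice 10 and 12, also with LSK cells alone, clone 885 held only 0.00614% and 0.00809%. Both were below the mixed mouse 21, so the groups overlapped. Without mouse 21 its limma adjusted p was 0.0166, and over all settings it ran from 0.0166 to 0.596. Clone 15287 was detected in 8 of 8 libraries alone and in 2 of 7 mixed libraries, both of mouse 21 (marrow log2 difference -4.72 ± 2.30 SE, limma adjusted p = 0.459). Clone 12669 was detected in 4 of 8 and 2 of 7 libraries (marrow log2 difference -4.55 ± 2.24 SE, limma adjusted p = 0.459). Its groups overlapped in both tissues. It held 0% of the marrow of mouse 11, which had LSK cells alone. Its highest spleen share was 0.106% in the mixed mouse 22, against at most 0.0637% alone. Clone 21639 reached 0.0670% at most in a spleen. In marrow it was highest in the mixed mouse 23, at 0.0379%, against at most 0.00541% with LSK cells alone and 0% in mixed mice 21 and 22. Clone 85168 was detected in 7 of 8 and 2 of 7 libraries at 0.0860% or less.

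Some clones had a higher log2 mean with GMP cells in at least 1 tissue. Clone 7785 had shares of 11.8%, 25.6%, 21.3% and 21.7% in the marrows of mice 9 to 12 and 24.7%, 34.4% and 32.5% in those of mice 21 to 23. Mice 22 and 23 were above all others and mouse 21 below mouse 10, at 0.65 ± 0.32 (SE) on the log2 scale (limma adjusted p = 0.459). In the spleen its shares were 9.85%, 28.1%, 20.6% and 20.9% alone and 16.3%, 25.5%, 15.3% and 32.1% mixed, and overlapped widely. Clone 94628 was detected in 3 of 8 libraries alone and 4 of 7 mixed, with 3.604% in the spleen of mouse 22 and at most 0.183% elsewhere. Clone 34023 held 2.20% of the spleen of mouse 21, clone 7670 1.03% and clone 6595 0.216% of the same spleen. In marrow clones 7670 and 6595 were lower with GMP cells on the log2 scale (-0.59 and -3.09; limma adjusted p = 0.952 and 0.73). There clone 7670 held 2.43% in mouse 12 and clone 6595 0.251% in mouse 9, both with LSK cells alone, and their mean shares of mice were higher alone, at 0.325% against 0.220% and 0.0404% against 0.0320%. Clone 7280 held 0.212% of the spleen of mouse 21 and 0.139% of that of mouse 9, which had LSK cells alone.

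**Figure D5:**
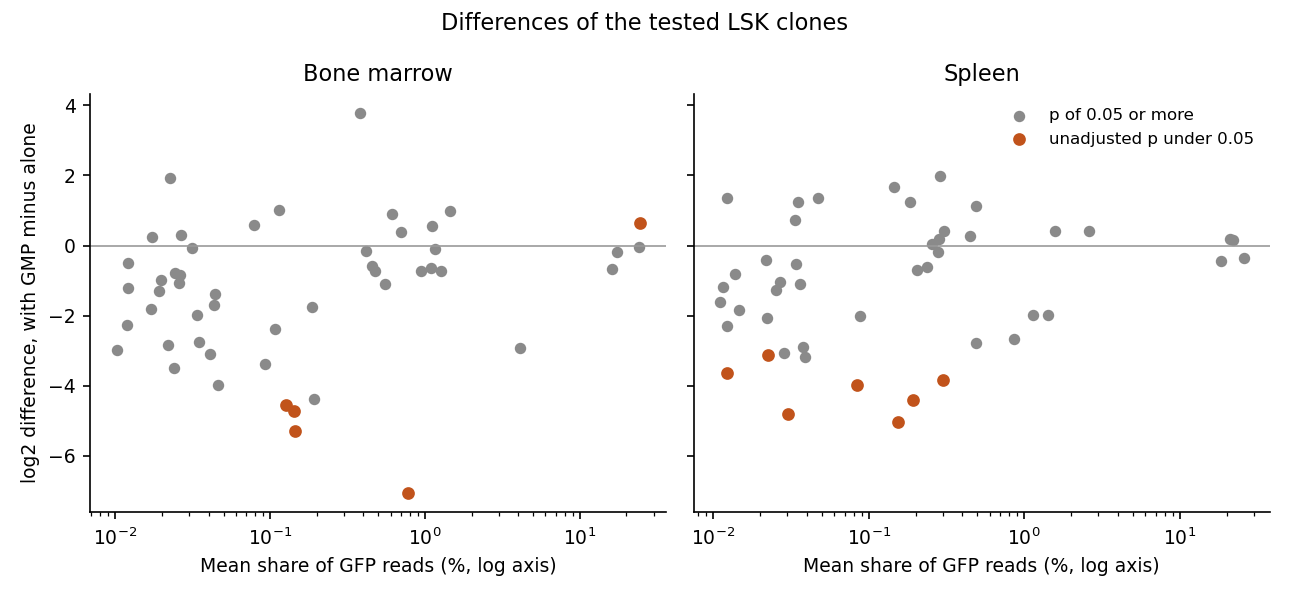
Difference in log2 share (CPM plus 10) of each tested LSK clone, mixed minus alone, against its mean share on a log axis, in bone marrow (left, 50 clones) and spleen (right, 47 clones). Orange points have an unadjusted limma p under 0.05, 5 in marrow and 7 in spleen, and no clone has an adjusted p under 0.05. All but 1 of the orange points lie below 0.

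Distances in clonal make-up between the kinds of mouse were not shown to exceed those within them, with both groups pooled. Bray-Curtis distance runs from 0 for equal shares to 1 for no shared clone. In marrow it averaged 0.278 between a mixed and an unmixed mouse, 0.269 within mixed mice and 0.252 within mice with LSK cells alone (between minus within 0.021, exact permutation test, p = 0.40, adjusted p = 0.80). In spleen the averages were 0.278, 0.355 and 0.220 (between minus within -0.0091, exact permutation test, p = 0.857, adjusted p = 0.857). Mixed spleens were thus farther from spleens with LSK cells alone than the latter were from each other, and farthest among themselves. The pooled test cannot tell such a difference in spread from equal make-up. Within a mouse, marrow and spleen were 0.314, 0.0799, 0.1002 and 0.153 apart in mice 9 to 12 and 0.350, 0.196 and 0.356 apart in mice 21 to 23. The 2 highest values were those of mixed mice, and mouse 9 came next.

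At 100 CPM, the gap between marrow and spleen of the same mouse leaned opposite ways in mixed mice and in mice with LSK cells alone. All 4 mice with LSK cells alone had more detected clones in marrow than in spleen, and all 3 mixed mice with both tissues had fewer. The gaps were 1 to 3 clones per mouse. On the log2 scale, marrow minus spleen was 0.073 ± 0.040 (SD, n = 4) alone and -0.070 ± 0.024 (SD, n = 3) mixed (exact permutation test of the difference, p = 0.0571, the smallest possible, adjusted p = 0.171 over 3 tests). Effective clones and the largest clone gave p = 0.743 and 0.571 by the same exact permutation test. The directions in clone number depended on the minimum for detection. At 10 CPM, marrows of mice 9 to 12 held 51, 53, 55 and 73 clones. Their spleens held 68, 66, 60 and 74, so that each of these mice had fewer in marrow. Mixed mice 21 to 23 then had 49, 51 and 35 in marrow and 54, 59 and 33 in spleen. At 1000 CPM, mixed mice 22 and 23 had more in marrow, and mouse 9 had fewer.

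The host was compared through Ptprca mice, an immunocompetent strain that received the same kinds of cells (3 mice with LSK cells alone and 4 mixed). Their marrows held 116 ± 8.50 (SD, n = 3) detected LSK clones alone and 103 ± 7.35 (SD, n = 4) mixed. The log2 difference of mixed minus alone in detected clones was -0.57 in NSG marrow and -0.18 in Ptprca marrow, and -0.41 and -0.18 in spleen. For effective clones it was -0.06 in NSG and -0.51 in Ptprca marrow. None of the 6 differences between hosts passed (exact permutation of the recipient kind within host, p = 0.129 to 0.629, adjusted p = 0.539 to 0.629), so no response to GMP cells is shown to be particular to NSG mice.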

How the data were processed

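The deposited tables hold CPM per barcode, 1 column per mouse tissue or pool, which the authors had filtered, collapsed over PCR duplicates and scaled to 1000000 reads per column. Bowtie 1.2.2 and R 3.6 are listed, with no role, in the submitters' processing notes, and the filters are not given in the sources used here. Per the labels the material was genomic DNA, whereas the extraction text is that of a droplet method for single cells. Of the deposited columns 32 were used and 19 were not. Values were whole multiples of 1 read, taken as reads, for 100% of 8927 values within 0.01 of a read, in the 29 columns of mouse tissues. The pool columns were not checked, and their read numbers and the Wilson interval rest on the same assumption. GFP columns were rescaled to their GFP total.

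Numbers, dominance, survival and distances were compared over mice by exact two-sided permutation tests with Benjamini-Hochberg adjustment within each family. Clones were tested with limma 3.58.1 (trend, two-sided, R 4.3.3) on log2 of CPM plus 10, a scale that understates changes of low clones, for means of 100 CPM or more. edgeR 4.0.16 was an alternative. The clone test was checked on simulated data. Alternatives are given in the closing section. Intervals and the limit of 3 reads for a count of 0 cover counting error only.

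Named clones were the 8 largest by mean share in each kind of recipient, up to 4 per direction and tissue with the lowest limma p, and up to 4 per direction with the largest difference in the share of libraries that detect them. The members, lists and tests were chosen with earlier results of these data known.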

Additional observations from a re-analysis of the deposited data

Results flagged for a closer look

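Among 89 groups of 4 mice, 10 samples stood apart from the other 3 of their group by Dixon's test, which flags about 1 group in 20 by chance if values are normally distributed. That rate cannot be used here, since most groups were clones named for their shares. Where 3 mice have 0 reads, any share in the other mouse is flagged. This was so for clone 7280 in mouse 11, clone 2523 in mouse 10 and clone 148344 in mouse 23. Clone shares were tested as log2 of CPM plus 10. Clone 148344 stood apart in mouse 9, which had LSK cells alone, with 28.9% of marrow and 3.89% of spleen, and in the mixed mouse 23 with 9.18e-04% of spleen, where the other 3 mixed spleens had 0%. Clone 100907 was low in the spleen of the mixed mouse 24, at 7.01%. Clone 75494 was high in the spleen of the mixed mouse 23, at 0.0540%, clone 12669 in that of the mixed mouse 22, at 0.106%, and clone 15287 in that of mouse 9, at 0.198%. Clone 2523 stood apart in the spleens of mouse 10, at 0.0026%, and of the mixed mouse 23, at 0.0166%. Clone 7280 stood apart in the marrow of mouse 11, at 8.45e-04%.

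The marrow minus spleen difference in detected LSK clones was above 0 in 4 of 4 mice with LSK cells alone and below 0 in 3 of 3 mixed mice, and the log2 difference between the kinds of mouse was -0.14 (exact permutation test, p = 0.0571, adjusted p = 0.171). With a minimum of 10 CPM instead of 100 CPM, every mouse with LSK cells alone had fewer clones in marrow than in spleen.

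Mice with LSK cells alone held reads of libraries they were not labelled as receiving. Reads of the mCHERRY_2 library, that of the GMP cells, made up 0.00982% to 0.128% of their libraries, with the highest in the spleen of mouse 10. Reads with a BFP name, which no sample label mentions, made up 0.0023% to 0.0184%, with the highest in the spleen of mouse 9. A count of 0 would allow at most 4.99e-05% in these libraries.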

How the results depend on the processing

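No paired analysis was possible because the mixed recipients and the recipients of LSK cells alone are different mice with different numbers. Over 811 alternative values of 73 results, 741 were labelled unchanged. For permutation tests this meant the same direction and the same side of p = 0.05 before adjustment. For clones named by limma p it meant the same direction and the same side of an adjusted p of 0.05. The number of clones called had to be equal, and differences in mean share had to move by less than the larger SD. Tests of 3 mice against 4 cannot give p below 0.0571, so there an unchanged label meant direction only. Leaving out a mouse of the spleen raises the smallest possible p to 0.0571, so such a loss says nothing of the effect, and the range is given instead. Detected clones in the spleen (log2, -0.41 as reported) lost p under 0.05 with a minimum of 1000 CPM (-0.37), with any read counted (-0.20) and with equal GFP reads (-0.16). They ran from -0.48 to -0.27 without 1 mouse, the latter without mouse 23. Leaving out libraries with at least 0.1% of reads from outside GFP removed only mouse 10 from the spleens (-0.46). There too p could not fall below 0.0571. With 1 value per mouse, p was 0.0286 for detected clones (-0.48), the top 10 clones (1.78 points) and abundant survivors (-3.63 points). So it did in the spleen for the top 20 clones (0.348 points), for survivors by the mixed pool (-3.40 points) and for those from 100 CPM in the pool (-1.25 points).

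Pool classes in the spleen with survival at 10 CPM gained p under 0.05 from 100 to under 1000 CPM (-1.44 points by the LSK pool, -1.27 by the mixed pool) and lost it from 1000 to under 5000 CPM (-4.09 and -4.84). Without 1 mouse the latter class ran from -3.25 to -2.41 and from -4.11 to -3.28 points. These changed sign: marrow top 5 clones (-2.03 points); effective clones in marrow without mouse 12, its library with reads from outside GFP (8.51e-04, lowest -0.14); clones of 1% to under 10% in spleen (-0.417 to 1.25 without 1 mouse); the tissue difference in effective clones (-0.11 to 0.34) and in the largest clone (-11.4 to 1.28 points); and distances between minus within groups in marrow (-0.0062 to 0.043) and spleen (-0.045 to 0.035, and 0.0045 on square roots). Clones with an adjusted limma p under 0.05 numbered 0 to 1 in each tissue without 1 mouse, 15135 in marrow and 885 in spleen without mouse 21, and 0 under the other alternatives. Spleen log2 differences of clones 7670 (-0.04 to 2.75), 34023 (-0.086 to 3.62) and 6595 (-0.080 to 2.17) turned without mouse 21 and that of 128363 (-0.034 to 2.13) without mouse 24, and 6595 also with 1 value per mouse (-0.23). Added after seeing the data were the size classes and leaving out mice for them, for pool classes and for clones described by mean share. The cause of these changes was not tested. Fewer than 5 mice per group and 1 pool per kind limit the precision.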
